A study of Mus musculus with 2 samples.

Results

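The 10 genes described here are core circadian clock genes and their best known direct regulators and output: Arntl (also called Bmal1), Clock, Per1, Per2, Per3, Cry1, Cry2, Nr1d1, Nr1d2 and Dbp. They were chosen by gene name, and every transcript model assigned to 1 of these names was kept, whatever its class. They are 10 of 18595 annotated genes with a read, and held 345 reads on 74 models in replicate 1 and 368 reads on 81 models in replicate 2. RNA came from the hippocampus (tissue label: layer of hippocampus) of C57BL/6 male mice (strain B6NCrl) aged 6 months with no treatment or transgene in the labels. It was measured by long-read RNA-seq, in which 1 read can span a whole transcript. The 2 libraries form 1 group: their biosamples are separate, but their donor identifier is the same, so whether they come from 1 animal or several is not given. No contrast of conditions exists, and every test below compares these libraries, not conditions: Fisher's exact test sets their difference against counting error, and edgeR's exact test against a spread estimated from the libraries themselves (a biological coefficient of variation of 16.1%). The time of day at which tissue was taken is not given in the sources used here, and the levels of these genes are known to depend on it.

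In the mammalian clock, ARNTL and CLOCK bind each other and activate transcription from E-box sequences. Among their targets are the Per and Cry genes, whose proteins return to the nucleus and repress ARNTL and CLOCK, and the genes of the REV-ERB receptors Nr1d1 and Nr1d2, whose proteins repress Arntl. Dbp is an output gene driven through E-boxes, and its protein activates genes that hold D-box sequences. The suprachiasmatic nucleus of the hypothalamus is the master pacemaker, and the hippocampus is one of many brain regions with a local clock.

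Replicate 1 held 1330153 reads and replicate 2 held 1366252, so 1 read was worth 0.752 and 0.732 CPM (reads per 1000000 reads of the library), and the limit for a count of 0, set at 3 reads, was 2.26 and 2.20 CPM. Each long read is taken as 1 molecule, so CPM was not divided by transcript length. All 10 hippocampal marker genes had reads, with summed levels of 1256 and 1300 CPM. The 12 choroid plexus markers were all higher in replicate 1 (14044 against 325 CPM in sum), and the 6 markers of meningeal fibroblasts were all higher in replicate 2 (2881 against 1206 CPM). Of 13 markers of the suprachiasmatic nucleus and hypothalamus, summing to 76.7 and 62.9 CPM, Grp (46.6 and 32.9 CPM) and Vip (14.3 and 12.4 CPM) made up most. Six3, Hcrt and Oxt were at 0, and Avp, Nms, Six6, Lhx1, Prok2 and Pmch had at most 2 reads in a library. The part of these differences in the clock gene levels was not tested. In bulk tissue, fewer cells of a type and less RNA per cell cannot be told apart.

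Of the activators, Arntl (chr7:113207465-113314126, plus strand, mm10) was read 28 times in replicate 1 and 45 times in replicate 2. These are levels of 21.1 CPM (exact Clopper-Pearson 95% interval 13.99 to 30.4) and 32.9 CPM (24.0 to 44.1), a mean of 27.0 ± 8.41 CPM (SD, n = 2). Nearly all Arntl reads were spliced, 26 of 28 and 44 of 45. Clock (chr5:76209868-76304792, minus strand), its partner, had 20 and 31 reads, or 15.04 CPM (9.18 to 23.2) and 22.7 CPM (15.4 to 32.2), a mean of 18.9 ± 5.41 CPM (SD, n = 2). Both activators were higher in replicate 2, and for each gene the intervals of the libraries overlapped. Of the Clock reads, 4 of 20 and 12 of 31 were spliced, so spliced Clock reads stood at 3.01 and 8.78 CPM against 19.5 and 32.2 CPM for Arntl. The ranges of the activators did not overlap on the spliced scale, whereas on all reads they did. A read that lies wholly inside the last exon holds no junction. That exon measures 7011 bases in Clock-205 and 668 in Arntl-201, and its part in the spliced levels was not tested.

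Arntl had the largest number of distinct intron chains of the clock genes. Its 70 spliced reads carried 27 such chains over both libraries, of which 7 were found in both and 18 rested on a single read. The count includes incomplete matches and depends on the number of reads: Clock had 13 chains on 16 spliced reads. The full 20-exon transcript Arntl-201 had 6 and 14 reads. A further 20-exon model, with 3 and 10 reads, held an acceptor site absent from the annotation. That acceptor lies 3 bases downstream of the annotated one, in the coding sequence, at the end of the intron chr7:113295594-113299186. Over all Arntl reads through the intron, 4 of 18 used it in replicate 1 (22.2%, exact interval 6.41% to 47.6%) and 12 of 38 in replicate 2 (31.6%, 17.5% to 48.7%), or 16 of 56 together. Among the 11891 genes with at least 10 reads, 96 (0.807%) had an unannotated acceptor 3 bases from an annotated one with at least 10 reads and at least 2 in each library. Of the 10 clock genes, Arntl alone did. The share counts genes with as few as 10 reads in all, so it is no rate for genes read as often as Arntl. The joined exons are shown because the choice of acceptor removes 3 coding bases, given in capitals, with 17 exon bases on each side of the annotated junction from the GENCODE M21 transcript, 5′ to 3′.

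Arntl with the annotated acceptor: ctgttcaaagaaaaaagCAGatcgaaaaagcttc
Arntl with the acceptor 3 bases downstream: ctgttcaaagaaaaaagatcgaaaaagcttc
Clock with the upstream acceptor: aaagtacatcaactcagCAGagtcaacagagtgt
Clock with the acceptor 3 bases downstream: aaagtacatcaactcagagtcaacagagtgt

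Clock is printed beside Arntl because its annotation already holds such a pair, also separated by CAG, at the intron chr5:76229564-76230164. Reads through the upstream acceptor of Clock numbered 1 and 0, and through the downstream one 1 and 1, too few to give a share. In both genes the 3 bases read CAG. The number of Arntl reads over the annotated 12th junction, 14 and 26, was below that of its neighbours, 23 and 41 at junction 11 and 19 and 36 at junction 13.

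The ends of the activator models also differed. Starts and ends here and below are those of the models on which reads were placed, and the ends of single reads were not examined. Arntl reads lay on models that begin at 3 annotated starts within a short stretch: 11 and 25 reads at 113207465, 1 and 9 at 113207526, and 7 and 5 at 113207557. Models that end at the annotated 3′ end 113314126 held 21 and 38 spliced Arntl reads. Another 5 and 4 reads were on models that end at 113295593, where the annotation has no transcript end. That position is an exon edge, the last exon base before the intron with the shifted acceptor. The first and last junctions of Arntl-201 stood together on 14 and 31 reads. For Clock-205, a transcript of 9744 bases, only 1 read in replicate 1 and 0 in replicate 2 held both. Reads over Clock junctions numbered 2 and 10 at junction 2, 1 and 4 at junction 5, and 3 and 1 at junction 22, so they were fewer toward the 3′ end in replicate 2 and not in replicate 1. Of these molecules, 5 of the 16 spliced reads of both libraries were on models that end at 76266357, which is no annotated end. That position, too, is the last exon base before an intron. Such ends were not particular to the activators. For spliced reads, every unannotated model end of Per1, Per3, Cry1 and Cry2 was an exon edge as well. Unannotated ends inside an exon were those of Per2 at 91424454, Clock at 76214228 and 76216657, and Nr1d2 at 18204432.

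**Figure D1:**
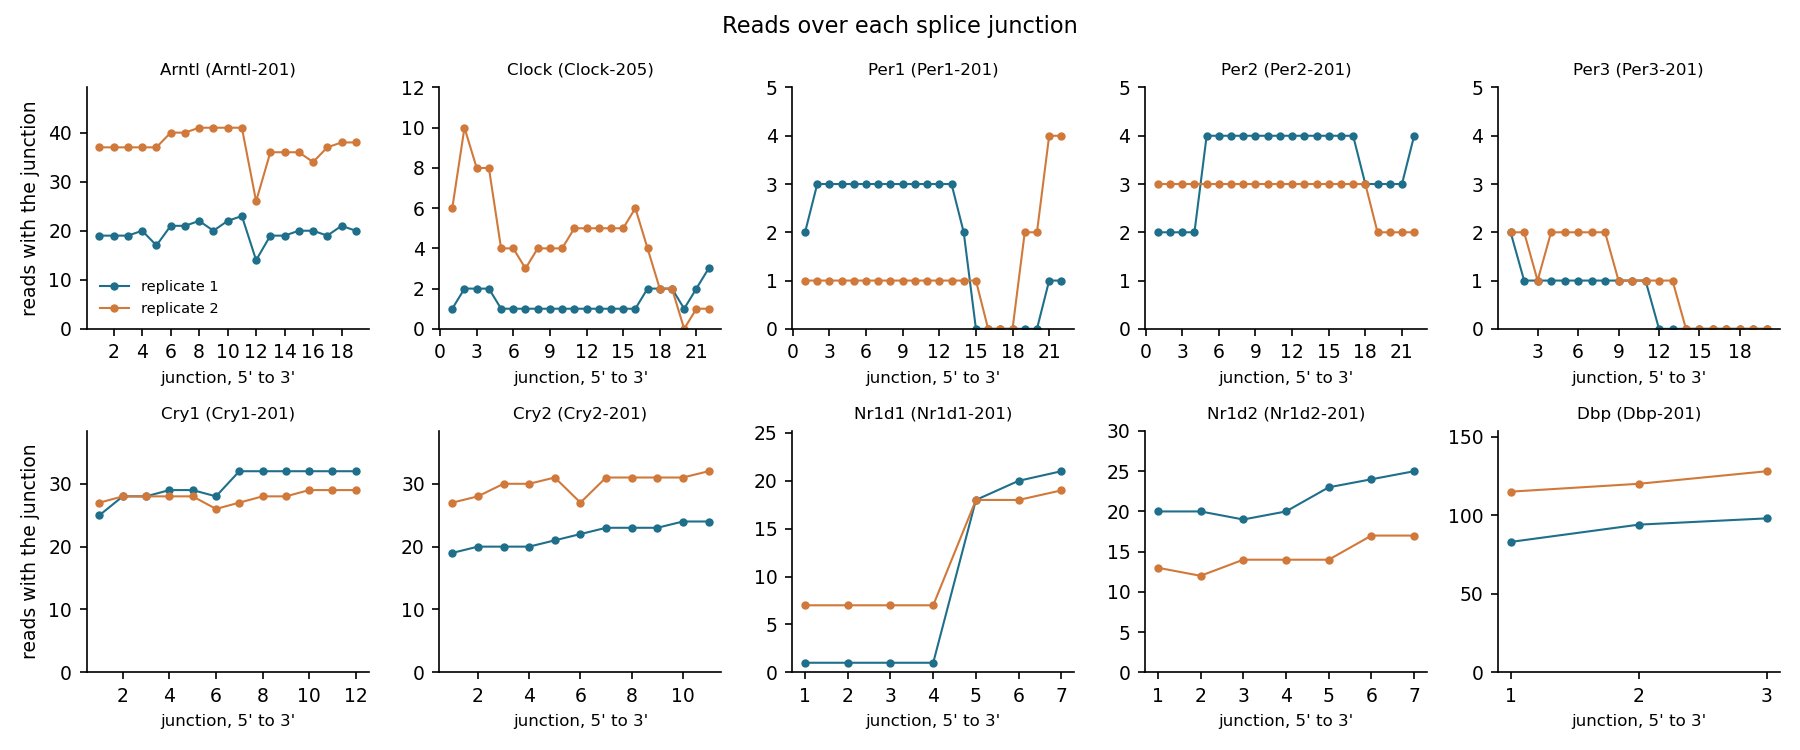
Number of reads (vertical axis) that carry each junction of 1 coding transcript per clock gene, numbered 5′ to 3′ (horizontal axis), in replicate 1 (blue) and replicate 2 (orange), with a separate vertical scale for each gene. Cry1, Cry2 and Dbp stay nearly level, Arntl dips to 14 and 26 at junction 12, Nr1d1 steps from 1 and 7 to 18 and 18 at junction 5, and Per3 reaches 0 before its 3′ end.

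The repressors as a class of 5 genes summed to 99.2 and 80.5 CPM, or 51.9 and 55.6 CPM in spliced reads alone. Within it, the Cry genes were read far more often as spliced molecules than the Per genes. Cry1 (chr10:85131700-85185064, minus strand) had 33 reads in each library, at 24.8 CPM (17.1 to 34.8) and 24.2 CPM (16.6 to 33.9), a mean of 24.5 ± 0.464 CPM (SD, n = 2). It was the steadiest of the 10 genes between the libraries, and 33 and 32 of its reads were spliced. The 13-exon transcript Cry1-201 accounted for 24 and 23 of them, and 24 reads in each library reached from the first to the last junction.

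Cry2 (chr2:92403646-92434043, minus strand) had 44 and 51 reads, at 33.1 CPM (24.0 to 44.4) and 37.3 CPM (27.8 to 49.1), a mean of 35.2 ± 3.005 CPM (SD, n = 2). Its spliced reads numbered 25 and 34, of which 18 and 22 matched the 12-exon Cry2-201. A further 19 and 16 reads formed unspliced models inside the annotated last exon. On spliced reads Cry1 and Cry2 could not be ordered, with 24.8 and 23.4 CPM for Cry1 against 18.8 and 24.9 CPM for Cry2. On all reads Cry2 was above Cry1 in both libraries.

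Per1 (chr11:69095217-69109960, plus strand), whose product forms the repressor complex with the CRY proteins, had 7 and 6 reads, or 5.26 CPM (2.12 to 10.8) and 4.39 CPM (1.61 to 9.56). None of them matched an annotated transcript in full: all 13 were incomplete matches, 9 of them spliced. Junctions 16 to 18 of the 22 in Per1-201 had no read in either library, and no read held both its first and its last junction. Models that begin at the start of Per1-201, 69098948, held 2 and 1 reads, and those at the start of Per1-202, 69095217, held 1 and 0.

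Per2 (chr1:91415982-91459324, minus strand), the paralogue of Per1, had 11 and 4 reads, at 8.27 CPM (4.13 to 14.8) and 2.93 CPM (0.798 to 7.50). Its 5 and 3 spliced reads covered every junction of the 23-exon Per2-201, and 1 and 2 of them were complete. The other 6 and 1 reads of Per2 were unspliced, and in replicate 1 all 6 were of the genomic class.

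Per3 (chr4:151003652-151044665, minus strand), the third Period gene, had 37 and 16 reads, at 27.8 CPM (19.6 to 38.3) and 11.7 CPM (6.69 to 19.0), a mean of 19.8 ± 11.4 CPM (SD, n = 2). Its counting intervals did not overlap, which held for no other of the 10 genes. Only 2 reads in each library were spliced, which puts spliced Per3 at 1.504 and 1.46 CPM, both under the 3-read limit. None of the 4 spliced reads reached the last junction of Per3-201, and 7 of its 20 junctions had no read. The other reads were unspliced, and 34 and 13 of them sat inside the annotated last exon, over chr4:151003652-151004655 in replicate 1 and 151003652 to 151004622 in replicate 2.

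Over exactly those intervals, the files also held an unannotated locus on the opposite strand, with 35 reads in replicate 1 and 25 in replicate 2. Sense and opposite-strand reads at the Per3 last exon were thus about equally many in replicate 1, and the opposite strand had more in replicate 2. Such mirrored loci, covering at least 90% of a genomic-class model with at least 10 reads, existed for 171 of 1944 such models in replicate 1 (8.80%) and 105 of 1766 in replicate 2 (5.95%). The strand setting of the library preparation is not given in the sources used here, so unspliced reads of Per3 and of the opposite locus cannot be told apart. Camta1, a gene on the same strand that encloses Per3, had 217 and 220 reads, and none of its models with reads overlapped Per3. Ube2n-ps1, a processed pseudogene within Clock on the same strand, had 0 and 3 reads, all unspliced and counted apart from Clock. Unspliced last-exon models of Clock had 13 and 18 sense reads, those of Cry2 19 and 16, those of Nr1d2 16 and 13, and that of Per2 5 in replicate 1. Over these 4 genes 1 opposite-strand unspliced read overlapped, at Clock. Nr1d1 had 3 such sense reads in replicate 1 against 45 unspliced reads of the opposite strand, whose interval, chr11:98768157-98769006, lies within the annotated gene Thra described below and shares 247 bases with the Nr1d1 model.

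**Figure D2:**
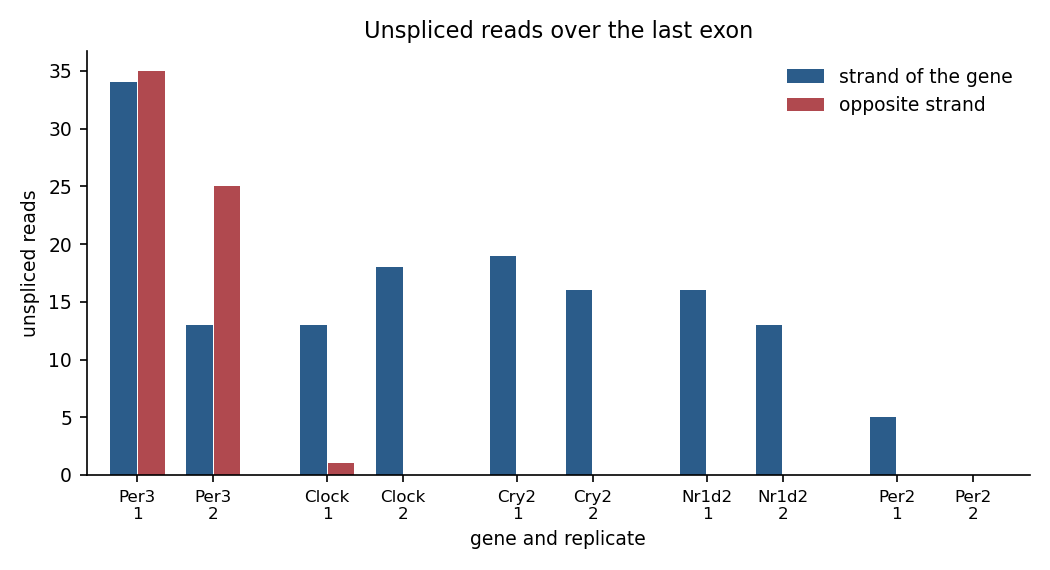
Unspliced reads of genomic-class models inside the annotated last exon (vertical axis) on the strand of the gene (blue) and on the opposite strand over the same interval (red), by gene and replicate. Per3 has 34 and 13 reads on its own strand and 35 and 25 on the other, while Clock, Cry2, Nr1d2 and Per2 have 5 to 19 on their own strand and at most 1 on the other. Nr1d1, whose last exon overlaps the annotated gene Thra, is not drawn (3 and 45 reads in replicate 1), and Per2 has no such model with at least 3 reads in replicate 2.

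The REV-ERB genes summed to 49.6 and 38.1 CPM. Nr1d2, coding for REV-ERB beta (chr14:18204054-18239127, minus strand), had 42 and 32 reads, at 31.6 CPM (22.8 to 42.7) and 23.4 CPM (16.0 to 33.1), a mean of 27.5 ± 5.77 CPM (SD, n = 2). Spliced reads made up 26 and 19 of these, and 18 and 10 matched the 8-exon Nr1d2-201. Nr1d1, coding for REV-ERB alpha (chr11:98767932-98775333, minus strand), had 24 and 20 reads, at 18.0 CPM (11.6 to 26.8) and 14.6 CPM (8.94 to 22.6), a mean of 16.3 ± 2.41 CPM (SD, n = 2). Both genes were higher in replicate 1, each with overlapping intervals, and on spliced reads the genes themselves overlapped, at 19.5 and 13.9 CPM for Nr1d2 and 15.8 and 13.9 CPM for Nr1d1.

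Most Nr1d1 reads lacked the 5′ exons of the gene. A 4-exon model that begins at 98770426, the annotated start of the short transcript Nr1d1-202, held 17 of the 21 spliced reads in replicate 1 and 11 of 19 in replicate 2. The full 8-exon Nr1d1-201 held 1 and 7. Junctions 1 to 4 were therefore on 1 and 7 reads and junction 7 on 21 and 19, so the first junction had 20.0% of the reads of the last over both libraries. Among 1535 genes with transcripts of 2000 to 3000 bases and at least 20 reads on the last junction, the median of that share was 86.4% (quartiles 53.2% and 95.9%). Nr1d2, with a longer transcript, had 78.6%, Cry1 85.2%, Cry2 82.1%, Arntl 96.6% and Dbp 87.6%. The 3′ end of Nr1d1 overlaps Thra, a thyroid hormone receptor gene on the opposite strand, by 1075 bases. Thra models reaching into Nr1d1 held 228 and 261 reads, 9.50 and 13.1 times the reads of Nr1d1, and 183 and 211 of them were spliced, which ties them to Thra by their introns. Unspliced reads in the overlap, 3 on the Nr1d1 side in replicate 1, are uncertain for that reason.

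Dbp (chr7:45705088-45710203, plus strand), a PAR bZIP transcription factor, was the highest of the 10 genes in both libraries. It had 99 and 130 reads, at 74.4 CPM (60.5 to 90.6) and 95.2 CPM (79.5 to 113), a mean of 84.8 ± 14.7 CPM (SD, n = 2). In the ranking of all genes by reads it stood at the 88.0th percentile, against the 40.6th for Per1. Spliced reads were 98 of 99 and 129 of 130. The 4-exon Dbp-201 held 83 of 99 reads (83.8%, 75.1% to 90.5%) and 114 of 130 (87.7%, 80.8% to 92.8%). The next model, with 3 exons and a start at 45705762, had 11 and 5 reads, Dbp-205 had 2 and 6, and Dbp-204 had 2 and 2. Sphk2, on the opposite strand, overlaps the 3′ end of Dbp by 737 bases, and 4 and 6 of its reads came from models that reach into Dbp.

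**Figure D3:**
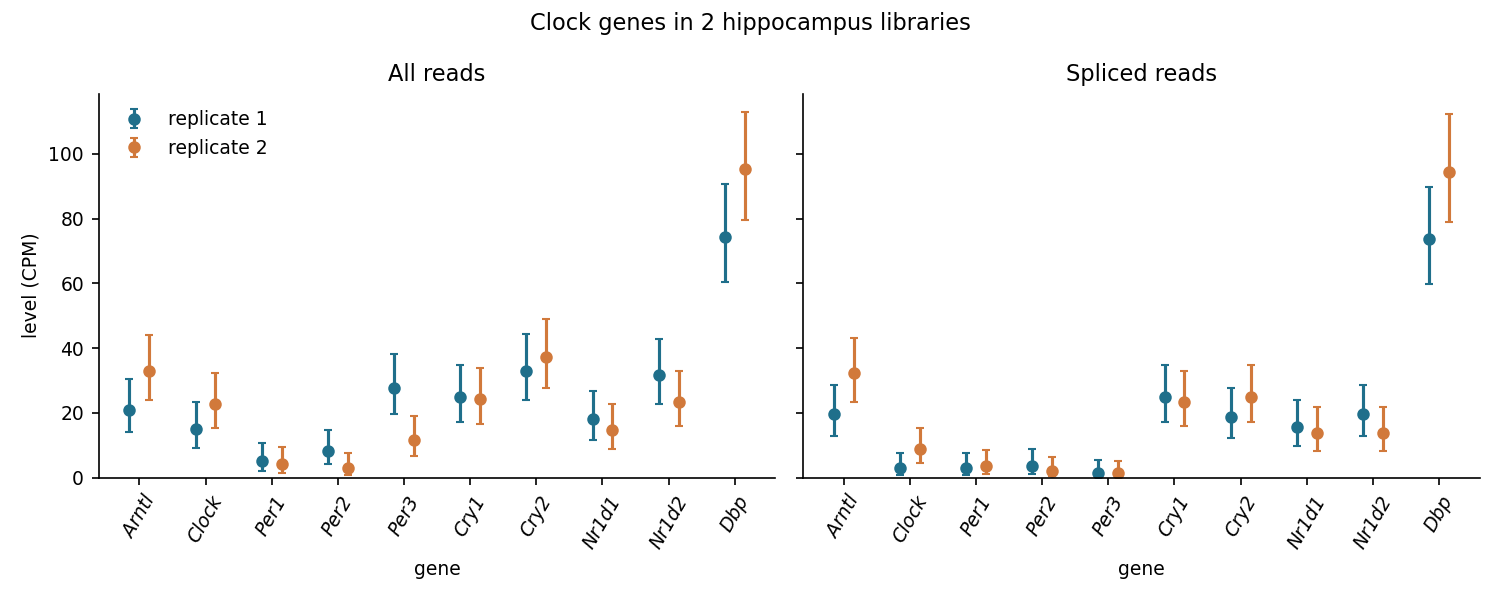
Level of each clock gene (vertical axis, CPM) in replicate 1 (blue) and replicate 2 (orange), from all reads (left) and from spliced reads (right). Bars are exact Clopper-Pearson 95% intervals of the count, and Dbp, at 74.4 and 95.2 CPM, lies above the other 9 genes in both panels.

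Ordered by mean level over all reads, the genes ran Dbp, Cry2, Nr1d2, Arntl, Cry1, Per3, Clock, Nr1d1, Per2 and Per1. Neighbours whose library ranges did not overlap were Dbp above Cry2, Cry2 above Nr1d2, and Nr1d1 above Per2, and from Nr1d2 down to Nr1d1 each gene overlapped the next. These ranges leave out counting error. Counting intervals of Cry2 and Nr1d2 overlapped in both libraries (24.0 to 44.4 and 22.8 to 42.7 CPM in replicate 1). Those of Nr1d1 and Per2 overlapped in replicate 1, and those of Dbp and Cry2 in neither library. On spliced reads the order was Dbp, Arntl, Cry1, Cry2, Nr1d2, Nr1d1, Clock, Per1, Per2 and Per3, with gaps between ranges below Dbp, below Nr1d1 and above Per3. The gap above Per3 lay between 3 reads of Per2 in replicate 2 and 2 reads of Per3, at and under the 3-read limit. From all reads to spliced reads, Per3 fell from the 6th place to the last, and Arntl rose from the 4th to the 2nd. Last exons measured 7011 bases in Clock-205, 2828 in Nr1d2-201, 2308 in Per3-201, 2175 in Cry2-201 and 2039 in Per2-201. In the other genes they measured 488 (Nr1d1-201) to 880 (Per1-201). The part of these lengths in the spliced order was not tested. Levels were also divided by the length of the longest annotated transcript with reads, or for Per1, which had none, of its longest annotated transcript. Dbp was again first at 46.2 ± 7.98 CPM per kilobase (SD, n = 2), and Per1 and Per2 were last at 1.03 ± 0.132 and 0.960 ± 0.648. This length was 2.287 kilobases for Clock and 2.139 for Per3, against 9.744 for Clock-205 and 5.999 for Per3-201. Places on this scale therefore depend on the transcript chosen.

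**Figure D4:**
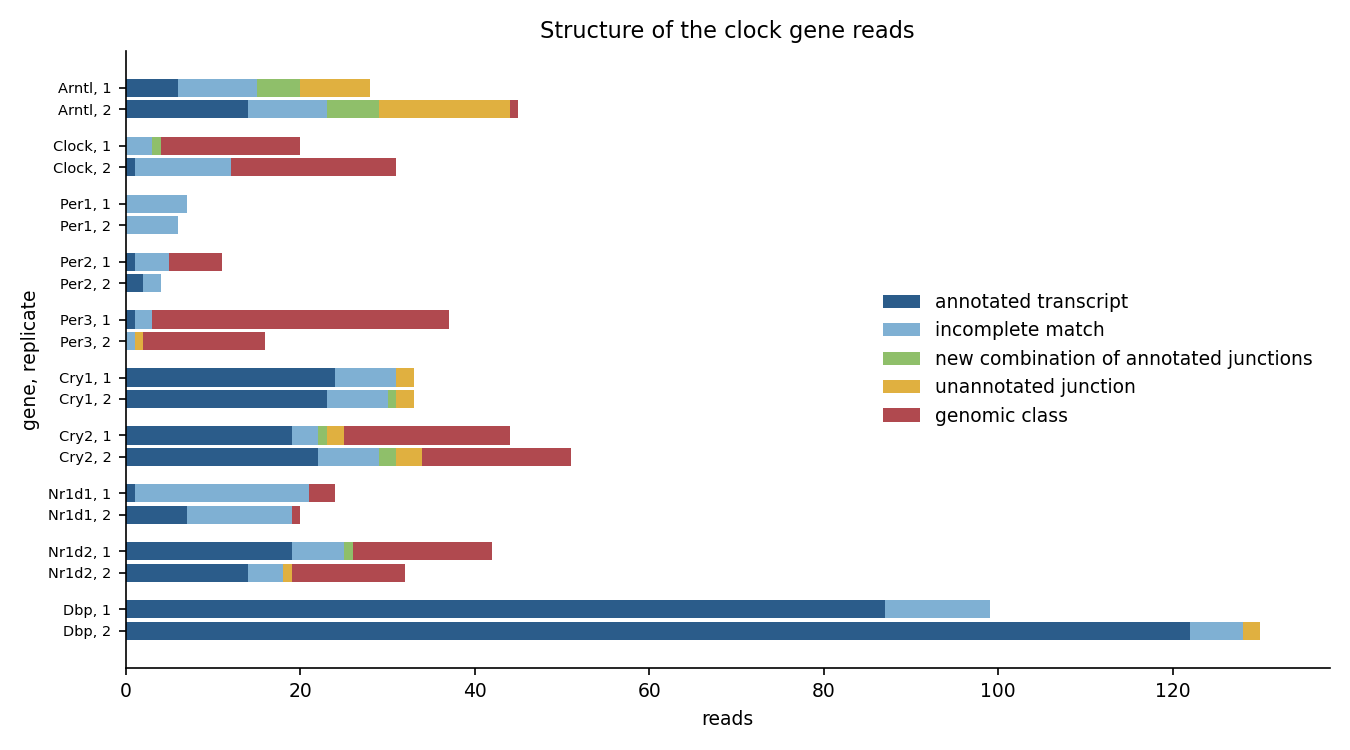
Reads of each clock gene and replicate (horizontal axis), split by the class of the transcript model they were placed on. Dbp and Cry1 are mostly annotated transcripts, Nr1d1 mostly incomplete matches, and genomic-class reads take 34 of 37 Per3 reads in replicate 1 and 14 of 16 in replicate 2.

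Read structure was also compared with that of all annotated genes. In replicate 1, 244 of 345 reads were spliced (70.7%, 65.6% to 75.5%) against 80.1% over all annotated genes, and in replicate 2, 299 of 368 (81.3%, 76.9% to 85.1%) against 83.4%. The all-gene share lay above the interval of the clock genes in replicate 1 and inside it in replicate 2. The genomic class took 27.2% and 17.7% of clock gene reads against 8.75% and 6.73% of all reads on annotated genes. By gene, Per3, Cry2, Clock and Nr1d2 held 85 of the 94 genomic-class reads in replicate 1 and 63 of 65 in replicate 2. Last exons of these genes, given above, measured 2175 to 7011 bases, and their part in the genomic-class share was not tested. Of 101 spliced intron chains over the 10 genes, 27 were found in both libraries, and these 27 carried 207 of 244 spliced reads in replicate 1 and 251 of 299 in replicate 2.

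Between the libraries, 0 of the 10 clock genes differed past a Benjamini-Hochberg adjusted p of 0.05 in Fisher's exact test (two-sided, reads of the gene against all other reads). Over all 11891 genes tested, 5.95% did, 2.56% being higher in replicate 1 and 3.38% in replicate 2. At an unadjusted p under 0.05 by the same exact test stood 1 of the 10 genes, Per3, and 16.2% of all genes. The largest differences were a 2.38-fold higher level of Per3 in replicate 1 (95% counting interval 1.29 to 4.57, adjusted p = 0.0570 by Fisher's exact test) and a 2.82-fold higher level of Per2 (0.837 to 12.2, adjusted p = 0.371 by Fisher's exact test), the latter from 15 reads. Per3 is at the threshold: with 4 other library totals it was called, at an adjusted p between 0.0422 and 0.0438 by Fisher's exact test. Its spliced reads were 2 and 2. In the other direction, Arntl was 1.56-fold higher in replicate 2 (0.955 to 2.605), Clock 1.51-fold (0.833 to 2.79) and Dbp 1.28-fold (0.977 to 1.68), with adjusted p of 0.338, 0.551 and 0.373 by Fisher's exact test. Thus 6 genes were higher in replicate 1 and 4 in replicate 2, with a median log2 ratio (CPM + 1, replicate 1 over replicate 2) of 0.13 against -0.05 over all genes tested. Arntl, Clock, Dbp and Cry2 were higher in replicate 2 and the other 6 in replicate 1, none of them past the test. These sides did not hold on every scale. On spliced reads Per1 was higher in replicate 2 (3.01 against 3.66 CPM). Without genomic and incomplete models the log2 ratio of Per2 was -0.49 (1 and 2 reads), of Nr1d1 -1.81 (1 and 7) and of Clock 0.016 (1 and 1). The counts of Per2 and Clock there are below the 3-read limit. By edgeR's exact test with a common dispersion, none of the 10 genes and 0.42% of all genes were called, with 1 of the 10 at an unadjusted p under 0.05 against 3.69% of all genes. That dispersion was estimated with both libraries as 1 group, so differences between them already enter the spread they are tested against. The edgeR counts are therefore no independent check.

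The choice of transcript was tested in the same way, as the share of the leading model among a gene's reads outside the genomic class. Only Cry1, Cry2, Arntl and Dbp had at least 20 such reads in each library, and 0 of these 4 passed Fisher's exact test, against 3.13% of 6262 genes. The unadjusted p of the 4 lay between 0.423 and 1 by Fisher's exact test. At a minimum of 10 reads Nr1d1 and Nr1d2 entered as well, and 0 of 6 passed, against 2.57% of 8184 genes. For Nr1d1 the leading 4-exon model held 81.0% (58.1% to 94.6%) and 57.9% (33.5% to 79.7%) of reads, with an adjusted p of 0.836 by Fisher's exact test.

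Promoter sequence was taken from RefSeq (GRCm38.p6), as windows around 13 annotated start sites of 9 of the 10 genes. Per2 had no entry in that table. Matches were searched on both strands, and a match is a description of letters, not of a bound site. The E-box CACGTG was found for Per1 and Cry1, in 2 of 13 windows (15.4%) against 7.15% of 32851 windows of all genes. The variant CACGTT was found for Cry1, Cry2 and Nr1d1, in 3 of 13 windows against 4.68% of all. The receptor element AGGTCA was found for Arntl, Clock, Nr1d2 and Per1, in 4 of 13 windows against 16.3% of all. The D-box letters TTATGTAA or TTATATAA occurred for Per3 alone, against 1.47% of all windows, and the full cAMP response element TGACGTCA for 0 of the 9 genes, against 1.79% of all windows. Its shorter form TGACG was found for Cry1, Cry2 and Per1, in 4 of 13 windows against 20.8% of all. The Per3 window holds TTATGTAA at 2 places, a feature of 7 of 32851 windows. Dbp had no match to any of these motifs in its window, whose start site lies downstream of the start of Dbp-201 at 45705088.

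The 250 bases before the start site are printed for Per1, Cry1, Per3 and Nr1d2, as 1 promoter for each kind of motif and 2 for the E-box, on the strand of the gene and 5′ to 3′. Capitals mark the E-box, its variant, the D-box and the receptor element, or their reverse complements. Reads on models that start within 100 bases of these sites numbered 2 and 1 for Per1, 26 and 29 for Cry1, 3 and 3 for Per3, and 20 and 15 for Nr1d2.

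Per1, chr11:69098699-69098948, plus strand: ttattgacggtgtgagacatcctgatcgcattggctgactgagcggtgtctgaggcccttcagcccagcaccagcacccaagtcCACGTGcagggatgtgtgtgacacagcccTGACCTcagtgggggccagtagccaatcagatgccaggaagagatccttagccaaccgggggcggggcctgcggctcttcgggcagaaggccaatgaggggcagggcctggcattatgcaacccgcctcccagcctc
Cry1, chr10:85185055-85185304, minus strand: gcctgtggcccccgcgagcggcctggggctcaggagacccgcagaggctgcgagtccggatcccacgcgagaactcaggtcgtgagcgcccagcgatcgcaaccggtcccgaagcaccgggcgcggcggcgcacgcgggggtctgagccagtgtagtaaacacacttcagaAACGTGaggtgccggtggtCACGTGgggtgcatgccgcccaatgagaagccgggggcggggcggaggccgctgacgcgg
Per3, chr4:151044666-151044915, minus strand: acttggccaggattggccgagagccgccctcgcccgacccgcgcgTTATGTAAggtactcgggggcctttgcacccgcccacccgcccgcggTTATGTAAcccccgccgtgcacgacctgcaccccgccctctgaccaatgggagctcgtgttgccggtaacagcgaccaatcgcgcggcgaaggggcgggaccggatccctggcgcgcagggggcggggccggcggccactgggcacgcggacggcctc
Nr1d2, chr14:18239107-18239356, minus strand: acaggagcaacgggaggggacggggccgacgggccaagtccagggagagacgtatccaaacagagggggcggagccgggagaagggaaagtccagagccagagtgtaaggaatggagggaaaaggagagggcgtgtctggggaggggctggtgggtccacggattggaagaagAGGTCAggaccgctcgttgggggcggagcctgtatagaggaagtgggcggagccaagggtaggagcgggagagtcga

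In these sequences the Per1 E-box begins 166 bases before the start site, the Cry1 E-box 60 bases before it with the variant at 79, and the Per3 matches 205 and 158 bases before it. The AGGTCA of Nr1d2 begins 77 bases before its start site.

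A wider list of 41 clock-related genes (paralogues, kinases, ubiquitin ligases, co-regulators and outputs) set the 10 genes in context. All 41 had reads and 37 had enough to be tested, with a median log2 ratio of 0.01 (CPM + 1). Of these 37, 4 passed Fisher's exact test over all genes (10.8%, against the background of 5.95%), all higher in replicate 1. Skp1a, a subunit of SCF ubiquitin ligases, had 1235 and 995 reads, a 1.27-fold difference (1.17 to 1.39, adjusted p = 9.76e-07 by Fisher's exact test). Gsk3b, a kinase that acts on clock proteins, had 725 and 455 reads, 1.64-fold (1.45 to 1.84, adjusted p = 1.62e-14). Bhlhe41, an E-box repressor also called Dec2, had 169 and 70 reads, 2.48-fold (1.87 to 3.33, adjusted p = 2.67e-09), and Rorb, a receptor of the ROR family, had 109 and 45, 2.49-fold (1.74 to 3.60, adjusted p = 7.58e-06).

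In the last 3 of these genes the difference lay in unspliced reads, as for Per3. Gsk3b had 685 and 394 unspliced reads but 40 and 61 spliced ones. Bhlhe41 had 167 and 70 unspliced and 2 and 0 spliced reads, and Rorb 100 and 36 unspliced and 9 and 9 spliced. Skp1a alone of the 4 differed in spliced reads, 1196 against 977 (adjusted p = 1.03e-05 by Fisher's exact test on spliced reads). The spliced share over all annotated genes was lower in replicate 1 too, at 80.1% against 83.4% in replicate 2. The part of this difference in the results for Per3, Gsk3b, Bhlhe41 and Rorb was not tested. By edgeR's exact test, with the limit on its spread given above, 0 of the 37 were called, and 3 had an unadjusted p under 0.05.

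The 10 related genes of highest mean level were Skp1a at 828 CPM, Gsk3b at 439, the kinase Csnk1a1 at 288, the RNA-binding protein Nono at 178, the scaffold Rack1 at 178, the deubiquitinase Usp2 at 117, the F-box gene Btrc at 111, the inhibitor Id2 at 108, the deacetylase Hdac3 at 102 and Ddb1 at 100.1 CPM. The only clock gene within reach of this group was Dbp, at 84.8 CPM. Csnk1a1, Nono, Rack1, Btrc, Id2, Hdac3 and Ddb1 differed between the libraries by 1.01-fold (Rack1) to 1.096-fold (Ddb1), and 0 of these 7 passed the test. Usp2 was higher in replicate 2, with 132 and 185 reads (1.36-fold, 1.09 to 1.72, adjusted p = 0.0917 by Fisher's exact test). It passed on spliced reads, 122 against 181 (adjusted p = 0.0395 by Fisher's exact test), and with incomplete and genomic-class models left out (adjusted p = 0.0369). Without genomic-class models alone, 4 related genes were again called, but only Skp1a was shared with the 4 above. Usp2 (125 and 181 reads, adjusted p = 0.0489 by Fisher's exact test) and the phosphatase subunit gene Ppp1cc (33 and 68, adjusted p = 0.0181) were then higher in replicate 2, and Tef, a PAR bZIP paralogue of Dbp, in replicate 1 (99 and 16, adjusted p = 3.12e-14). For Tef the incomplete class held 74 and 2 reads and the genomic class 1 and 68, while its reads of every class numbered 100 and 84. For Ppp1cc the genomic class held 11 and 0 reads, while its unspliced reads of every class numbered 11 and 13. Its reads of every class numbered 44 and 68 (adjusted p = 0.263 by Fisher's exact test), and on spliced reads, 33 and 55, it was not called. With annotated models only, 12 and 33 reads, it was called as well. Ppp1cc and Tef are named here after their values were seen.

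**Figure D5:**
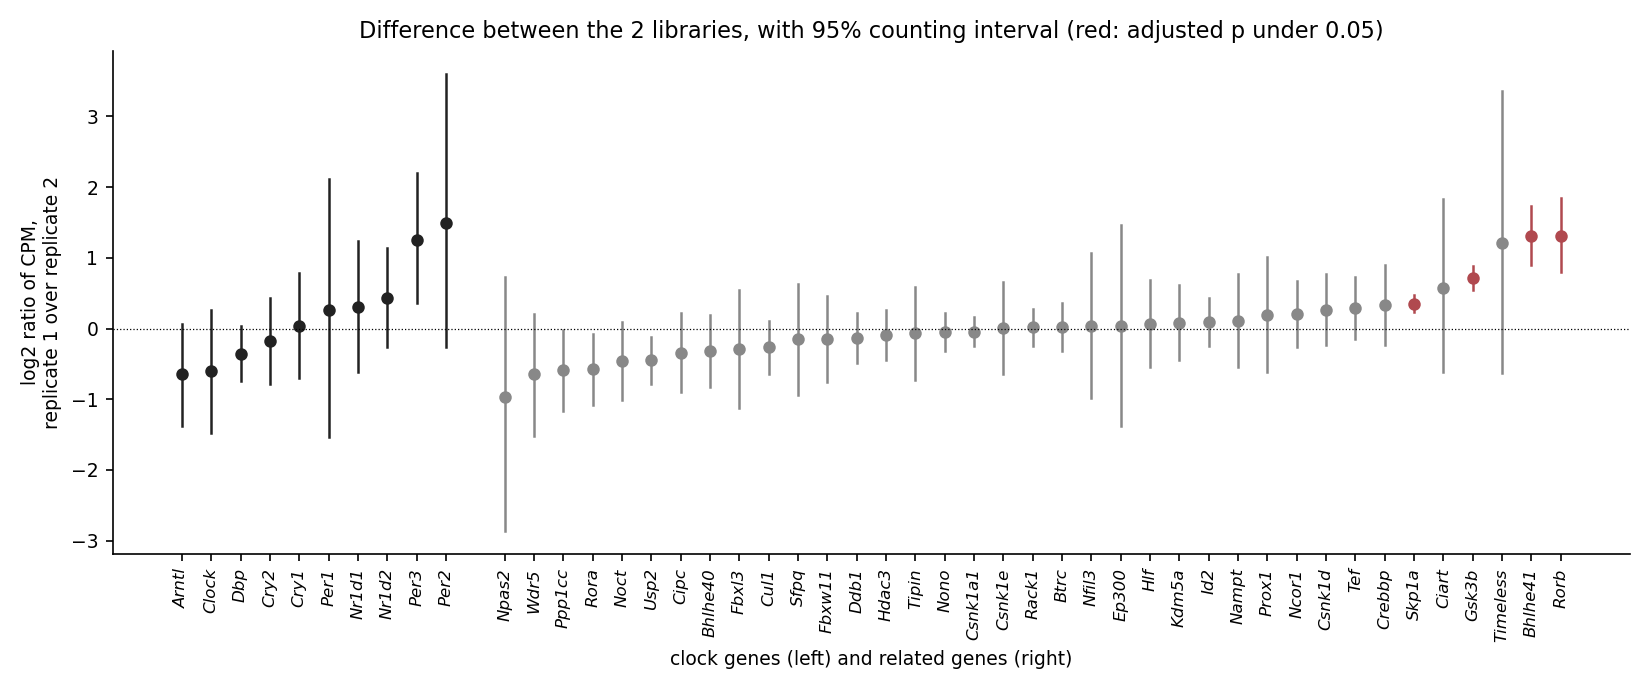
Log2 ratio of CPM, replicate 1 over replicate 2 (vertical axis), for the 10 clock genes (left, black) and the 37 related genes tested (right, grey), with 95% counting intervals. The 4 genes past the adjusted threshold, Skp1a, Gsk3b, Bhlhe41 and Rorb, are red and lie above 0, and the intervals of 9 of the 10 clock genes include 0.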

How the data were processed

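Long-read RNA-seq was deposited by the authors as raw counts of reads per TALON transcript model, 1 table for each of 2 libraries, on mm10 with GENCODE M21 per the file headers. The sources used here do not give the aligner, platform, filters or strand setting. Model counts were summed per gene, all classes included. CPM used all reads of a library, and log2 ratios used CPM + 1. Replicates were compared for genes with at least 10 reads by two-sided Fisher's exact tests with Benjamini-Hochberg adjustment over all genes, and by edgeR 4.0.16 exact tests. With 1 group, p-values concern only the difference between these libraries, which may be technical. Those of Fisher's exact test set it against counting error alone, and intervals (Clopper-Pearson, 95%) and limits cover counting error only. DESeq2 1.42.0 gave alternative size factors. The tests were tried on simulated data. Intron chains and coordinates came from the deposited annotations. Promoters came from RefSeq. All 10 members, related genes passing the test, the 10 highest related genes and overlapping genes with reads are named. Members and lists were chosen with earlier results of these data known.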

Additional observations from a re-analysis of the deposited data

Results flagged for a closer look

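Reads on unannotated loci opposite clock genes were not counted for any gene and exceeded the 3 reads that a count of 0 allows. Opposite Per3 there were 35 reads in replicate 1 and 25 in replicate 2. Opposite Clock there were 15 and 12. Opposite Arntl there were 4 in replicate 1 and 0 in replicate 2, and opposite Nr1d1 1 in replicate 1 and 4 in replicate 2. Those of Per3 form 1 locus in each library, whereas those of Clock form 4 loci in replicate 1 and 2 in replicate 2, the largest with 9 and 10 reads.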

How the results depend on the processing

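No paired analysis was possible because there is 1 group. The count of 0 clock genes called became 1, Per3, with TMM library sizes, DESeq2 size factors, reads on annotated genes as the total, or all reads less the choroid plexus list. It stayed 0 under the other 6 alternatives, including spliced reads only, an alternative chosen after seeing the data. Not all 10 genes were tested there: 8 without genomic-class models, 5 without incomplete models as well, 5 on annotated models only and 7 on spliced reads. Per3 was below the 10-read minimum in each of these, so it could not be called. The 4 related genes called became 2 without genomic and incomplete models, 2 with spliced reads only, both of them Usp2 and Skp1a, and 0 by edgeR's exact test; without genomic-class models, also chosen after seeing the data, 4 were called, of which Skp1a was shared. The median level of the 10 genes, 22.1 CPM, was 15.8 without genomic-class models, 7.97 without incomplete models as well, 5.16 on annotated models only, 23.2 with reads on annotated genes as the total, 8.17 per kilobase, and 22.9 to 23.1 with either replicate left out. The multi-exon share of 76.2% ranged from 70.7% to 81.3% with either left out. Leaving out genomic and incomplete models turned the log2 ratio of Per2 to -0.49, of Clock to 0.016 and of Nr1d1 to -1.81, and left Per1 no read. Few reads then enter: 1 and 2 for Per2, 1 and 1 for Clock, and 1 and 7 for Nr1d1. The leading model count stayed 0 under both alternatives. E-box promoters went from 2 to 4 genes with CACGTT added. With 13 to 229 reads per gene, differences inside the counting intervals given were not detectable.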
